A study of Homo sapiens with 8 samples.

Results

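The regions described here are NKRF peaks of MDA-MB-231-P3 cells transfected with siRNA against Uc003xsl.1 with summits no more than 1 kb from either end of a long non-coding RNA (lncRNA) gene and over 1 kb from all ends of protein-coding genes. Such lncRNA ends are called stand-alone below. The peaks were chosen by position alone, on chromosomes 1 to 22, at any tag count and against the RefSeq genes of GRCh38.p14. They numbered 437 of the 11826 autosomal peaks of the si-Uc003xsl.1 lists and of the 20386 peaks of all 4 deposited lists. Replicate 1 held 267 of them among 7442 autosomal peaks, and replicate 2 held 170 among 4384. The same rule found 160 of 7380 peaks in control replicate 1 and 24 of 896 in control replicate 2.

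NKRF was immunoprecipitated with the antibody ab168829, and peaks were called against input DNA in 2 control and 2 si-Uc003xsl.1 libraries. All came from the MDA-MB-231-P3 line, labelled as a strongly metastatic subline of triple-negative breast cancer, and the comparison group has the treatment label control, with si-NC in the names of its deposited lists. The transfection protocol printed for the control samples is word for word that of the knockdown samples and names siRNA against Uc003xsl.1, so what the control cells received is not given by it, and groups here follow the titles and treatment labels. The labels do not say whether replicates were separate cultures, so any p-value measures only the spread between these libraries, and neither the depletion of Uc003xsl.1 nor an IgG library was analysed here. Control replicate 1 and the si-Uc003xsl.1 libraries had 19335431, 18890698 and 11366267 tags after duplicate filtering and were called with the same program and threshold. Control replicate 2 had 8250475 tags, longer reads, another caller version and another threshold, and it is given beside the others without entering the main comparison.

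NKRF, the NF-κB repressing factor, is a nuclear protein known to silence some NF-κB target genes through a negative regulatory element in their promoters. The title of the series describes Uc003xsl.1 as a decoy for NKRF, so the comparison asks where NKRF is found once that RNA is depleted. LncRNA genes are transcribed by RNA polymerase II. Many start close to a protein-coding promoter and share it, which is why the stand-alone rule removes starts that a neighbouring protein-coding end could account for. The rule uses gene ends only, so a stand-alone lncRNA end can still lie inside a protein-coding gene, where alternative promoters may exist.

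The promoters shown next are, among those that shared at least 150 of their 300 bases with a member peak, the 4 with most tags in si-Uc003xsl.1 replicate 1 and the 3 with most tags among the named genes of replicate 2, followed by a control counterpart. Each runs from 250 bases before to 50 bases after the start of the gene, 5′ to 3′ on its own strand, from RefSeq with build GRCh38.p14. Capitals mark the GC box GGGCGG or its reverse complement CCGCCC. The last promoter is the one that shared most bases, 162, with a control peak. LOC124902765 (chr11:118608462-118608761, minus strand), NDST1-AS1 (chr5:150485943-150486242, minus strand) and LOC105371901 (chr17:77141390-77141689, minus strand) led replicate 1. MIRLET7A1HG (chr9:94166008-94166307, plus strand), also of replicate 1, hosts let-7 microRNAs. MELTF-AS1 (chr3:197002656-197002955, plus strand), TOB1-AS1 (chr17:50866429-50866728, plus strand) and SLC9A3-AS1 (chr5:472986-473285, plus strand) came from replicate 2, and LOC105377982 (chr6:123519169-123519468, plus strand) from control replicate 1.
LOC124902765: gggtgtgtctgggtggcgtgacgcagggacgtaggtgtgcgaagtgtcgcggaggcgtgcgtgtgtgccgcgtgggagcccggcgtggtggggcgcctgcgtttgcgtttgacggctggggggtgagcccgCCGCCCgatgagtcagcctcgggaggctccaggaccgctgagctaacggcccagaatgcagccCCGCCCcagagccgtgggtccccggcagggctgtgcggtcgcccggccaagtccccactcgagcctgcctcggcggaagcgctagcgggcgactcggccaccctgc
NDST1-AS1: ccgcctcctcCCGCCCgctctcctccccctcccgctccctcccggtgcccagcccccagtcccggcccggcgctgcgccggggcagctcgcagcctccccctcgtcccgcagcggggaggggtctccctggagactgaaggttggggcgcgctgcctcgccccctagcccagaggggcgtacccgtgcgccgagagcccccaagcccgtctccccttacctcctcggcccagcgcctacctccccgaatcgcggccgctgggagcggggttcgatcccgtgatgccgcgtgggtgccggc
LOC105371901: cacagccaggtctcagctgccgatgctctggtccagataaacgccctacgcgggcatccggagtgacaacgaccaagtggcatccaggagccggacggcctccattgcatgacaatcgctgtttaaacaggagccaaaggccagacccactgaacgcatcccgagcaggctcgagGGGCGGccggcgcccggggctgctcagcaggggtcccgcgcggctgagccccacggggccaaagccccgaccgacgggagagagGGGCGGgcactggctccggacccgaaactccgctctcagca
MIRLET7A1HG: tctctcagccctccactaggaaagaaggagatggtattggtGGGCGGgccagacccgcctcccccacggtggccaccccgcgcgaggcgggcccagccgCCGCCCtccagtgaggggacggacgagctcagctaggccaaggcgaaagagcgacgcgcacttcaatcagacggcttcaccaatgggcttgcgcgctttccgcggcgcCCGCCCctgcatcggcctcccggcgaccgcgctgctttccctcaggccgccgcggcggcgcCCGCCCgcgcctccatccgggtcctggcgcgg
MELTF-AS1: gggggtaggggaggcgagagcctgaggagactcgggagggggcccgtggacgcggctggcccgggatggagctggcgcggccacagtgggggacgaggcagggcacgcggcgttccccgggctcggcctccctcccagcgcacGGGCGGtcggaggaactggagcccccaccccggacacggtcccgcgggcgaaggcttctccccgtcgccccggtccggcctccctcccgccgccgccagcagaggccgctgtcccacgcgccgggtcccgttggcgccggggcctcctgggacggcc
TOB1-AS1: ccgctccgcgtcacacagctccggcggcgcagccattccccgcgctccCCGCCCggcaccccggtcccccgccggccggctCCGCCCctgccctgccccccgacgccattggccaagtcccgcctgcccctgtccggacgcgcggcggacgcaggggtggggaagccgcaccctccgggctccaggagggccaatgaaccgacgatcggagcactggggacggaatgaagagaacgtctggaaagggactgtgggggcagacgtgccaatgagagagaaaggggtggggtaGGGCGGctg
SLC9A3-AS1: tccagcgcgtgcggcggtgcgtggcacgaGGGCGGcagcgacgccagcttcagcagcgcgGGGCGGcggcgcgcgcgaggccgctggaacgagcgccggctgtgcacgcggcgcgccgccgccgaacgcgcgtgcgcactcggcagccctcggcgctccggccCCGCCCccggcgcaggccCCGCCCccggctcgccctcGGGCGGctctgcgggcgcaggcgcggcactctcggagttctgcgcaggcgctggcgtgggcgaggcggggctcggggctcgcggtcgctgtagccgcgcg
LOC105377982: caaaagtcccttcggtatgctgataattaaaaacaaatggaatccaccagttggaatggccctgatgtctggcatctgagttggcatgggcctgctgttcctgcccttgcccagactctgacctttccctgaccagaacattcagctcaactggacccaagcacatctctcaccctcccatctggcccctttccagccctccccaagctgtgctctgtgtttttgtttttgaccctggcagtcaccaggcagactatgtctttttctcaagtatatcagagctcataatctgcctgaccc

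The 7 promoters under si-Uc003xsl.1 peaks held between 27 and 61 CpG dinucleotides in 300 bases, and each had a GC box. SLC9A3-AS1 had 5 GC boxes, MIRLET7A1HG had 4, TOB1-AS1 had 3, LOC124902765 and LOC105371901 had 2 each, and NDST1-AS1 and MELTF-AS1 had 1 each. The control promoter, LOC105377982, had 1 CpG and no GC box. The summits at LOC105371901, MIRLET7A1HG and MELTF-AS1 lay 288, 350 and 445 bp after the gene start, outside the printed bases. The summit at TOB1-AS1 lay 867 bp before the start, also outside them. A marked GC box therefore need not lie at a summit. The counts over all overlapped promoters are given further on.

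Peaks at stand-alone lncRNA ends made up 3.59% of the autosomal peaks of si-Uc003xsl.1 replicate 1 (95% exact Clopper-Pearson interval 3.18 to 4.04) and 3.88% of those of replicate 2 (3.33 to 4.49). In control replicate 1 they made up 2.17% (1.85 to 2.53). These intervals cover counting error only. Both knockdown lists lay above that control list, and their intervals did not meet its interval. The mean of the knockdown libraries was 3.73% ± 0.21 (SD, n = 2), which is 1.56 percentage points above control replicate 1. With 2 libraries against 1, the exact two-sided permutation p was 0.333, the smallest this design allows, so the difference cannot pass a threshold of 0.05. Control replicate 2, in which 24 peaks gave 2.68% (1.72 to 3.96), lay between the other control and the knockdown libraries, and its interval overlapped theirs.

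Genes are not spread evenly, so every peak of a list was moved by 20, 50 or 100 kb in either direction and classed again, which gives 6 fixed placements as a description of the local background. In si-Uc003xsl.1 replicate 1 the 267 called peaks stood beside 181 to 206 after a shift, a ratio of 1.36 to the shifted mean of 196.7. In replicate 2 the 170 peaks stood beside 112 to 127, a ratio of 1.45 to the mean of 117.5. In control replicate 1 the 160 peaks stood beside 137 to 160, a ratio of 1.06 to the mean of 150.7. The called count exceeded every shifted count in both knockdown lists, whereas in the control list it equalled the highest. On the log2 scale the ratio was 0.49 ± 0.06 (SD, n = 2) in the knockdown libraries and 0.09 in control replicate 1, a difference of 0.40 with the same exact permutation p of 0.333. A peak at a protein-coding end cannot be a member where it was called but can become a member when shifted. A setting chosen after seeing the data left peaks at protein-coding ends out of the denominators only, judged at the called or shifted position. The difference in the log2 ratio was then 0.65. Peaks called at protein-coding ends stayed in the shifted counts, so that value does not correct for them.

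The excess lay at the 5′ ends of the lncRNA genes. Strand was known for 62.6% of the 17795 autosomal lncRNA genes, and 9106 5′ ends and 10573 3′ ends among them were stand-alone. In si-Uc003xsl.1 replicate 1, 141 peaks lay at 5′ ends, against 47 to 60 after a shift, and 44 lay at 3′ ends, against 59 to 68. In replicate 2, 90 peaks lay at 5′ ends, against 34 to 39, and 29 at 3′ ends, against 28 to 41. Both knockdown lists therefore held over 2 times the shifted mean at 5′ ends, with ratios of 2.53 and 2.41, and less than the shifted mean at 3′ ends, with ratios of 0.68 and 0.83. In control replicate 1 the counts were 56 at 5′ ends, within the shifted range of 33 to 59, and 43 at 3′ ends, within 38 to 55. Peaks at ends of genes without a strand numbered 82, 51 and 61 in the same order of libraries, with ratios of 1.07, 1.12 and 1.07.

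**Figure D1:**
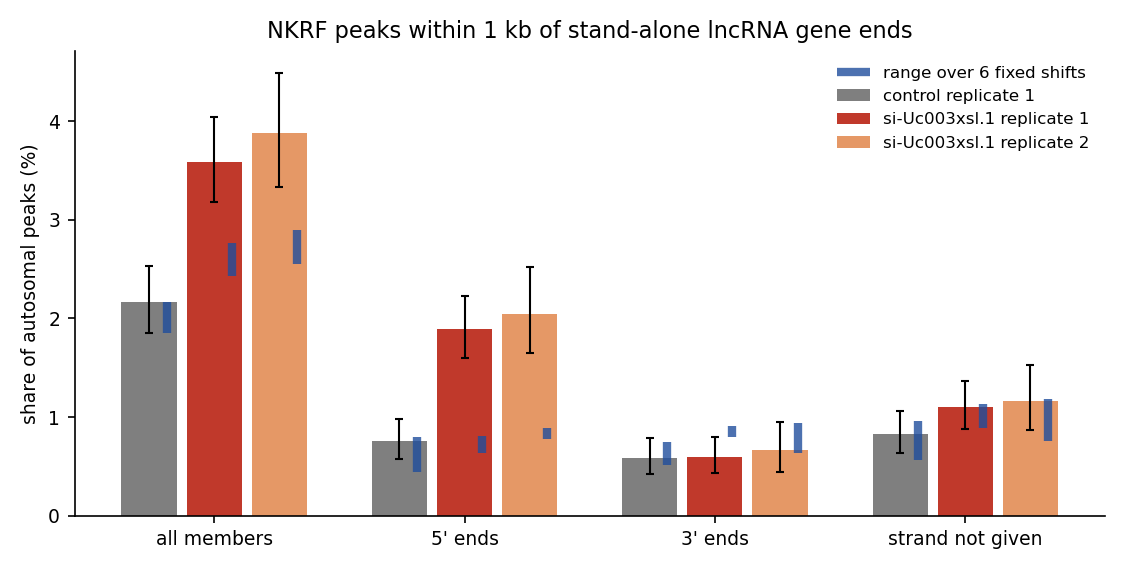
Share of autosomal NKRF peaks (percent, y axis) at stand-alone lncRNA gene ends, for all members and by type of end (x axis), in control replicate 1 and both si-Uc003xsl.1 libraries. Bars are the called shares with 95% exact binomial intervals and blue marks span the 6 fixed shifts; at 5′ ends the knockdown bars (1.89% and 2.05%) stand above their shifted ranges while the control bar (0.759%) lies within its range.

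As a log2 ratio to the shifted mean, the 5′ ends stood at 1.34 and 1.27 in si-Uc003xsl.1 replicates 1 and 2 and at 0.28 in control replicate 1. The difference of 1.02 was larger than the spread between the knockdown libraries (SD 0.05, n = 2), with an exact permutation p of 0.333. That SD does not cover the spread between control libraries, since only 1 entered the comparison. The split by gene end was made after the peak lists had been examined. At 3′ ends the difference was -0.25 (exact permutation p = 0.667). The shares of peaks at 3′ ends were close in all 3 libraries, at 0.591%, 0.661% and 0.583%. In control replicate 2 only 5 peaks lay at 5′ ends, equal to its shifted mean of 5.0, and 14 lay at 3′ ends, above the 3 to 13 found after shifts.

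Within the 1-kb windows, summits gathered around the 5′ end itself. In si-Uc003xsl.1 replicate 1, 55 of the 141 summits at 5′ ends lay within 250 bp of the end (39.0%), and in replicate 2, 38 of 90 did (42.2%). In control replicate 1, 16 of 56 did (28.6%). Against the shifted means, those inner counts had ratios of 3.37, 3.68 and 1.41, and the 16 of the control lay just above its shifted range of 5 to 15. In the rest of the 1-kb windows the ratios were 2.18, 1.93 and 1.15. The bins of 250 bp on either side of the 5′ end held 28 and 27 summits in replicate 1 and 23 and 15 in replicate 2, more than any other bin of those lists. At 3′ ends no bin held more than 7 summits in any of the 3 libraries.

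**Figure D2:**
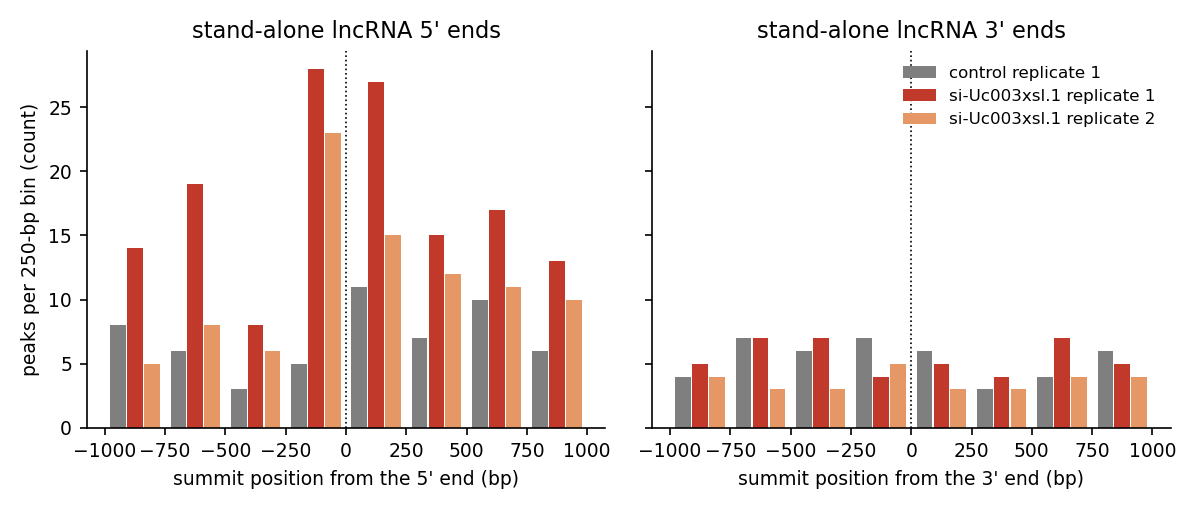
Number of summits per 250-bp bin (y axis) by distance from the 5′ end (left) or 3′ end (right) of the nearest stand-alone lncRNA gene in bp (x axis, positive in the direction of transcription), for control replicate 1 and both si-Uc003xsl.1 libraries. The tallest bins are those beside the 5′ end in the knockdown libraries (28 and 27 summits in replicate 1, 23 and 15 in replicate 2), and the 3′ panel stays at 7 or fewer.

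The tag count of a peak, the number of filtered reads counted inside it, also differed between the lists. Members had 6 to 104 tags with a median of 9 in si-Uc003xsl.1 replicate 1, 6 to 76 with a median of 9 in replicate 2, and 6 to 13 with a median of 6 in control replicate 1. The median difference of 3.0 had an exact permutation p of 0.333. Tags are not scaled for depth, which was given above for each library. In replicate 1, 131 of 267 members had 10 tags or more (49.1%, against 32.1% of all its autosomal peaks). In replicate 2, 81 of 170 did (47.6%, against 37.1%). In control replicate 1, 3 of 160 did (1.88%, against 1.4%).

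Width followed the same order. Members 500 bp or wider numbered 38 in si-Uc003xsl.1 replicate 1 (14.2%, against 9.53% of all autosomal peaks) and 25 in replicate 2 (14.7%, against 11%). Control replicate 1 had 0 such members, and 0% of all its autosomal peaks reached that width. The widest member spanned 1614 bp in replicate 1, 1385 bp in replicate 2 and 274 bp in control replicate 1. The difference in the share of wide members was 14.47 percentage points (exact permutation p = 0.333). Since the control list holds no wide peak of any class, this difference is not particular to lncRNA ends. The fragment length used by the caller was 60 and 67 bp in si-Uc003xsl.1 replicates 1 and 2 and 49 bp in control replicate 1. Whether it bears on peak width was not tested.

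Among peaks of 6 tags, the lowest count in these lists, the number at stand-alone lncRNA ends stayed within the range of its shifted placements in all 3 libraries. Members made up 2.33%, 2.75% and 1.95% of such peaks in si-Uc003xsl.1 replicate 1, replicate 2 and control replicate 1, beside shifted means of 2.24%, 2.26% and 1.92%. At 5′ ends alone, 20 and 17 peaks of 6 tags in the knockdown lists stood just above their shifted ranges of 11 to 19 and 7 to 16, and 39 in the control list lay within 17 to 41. Among peaks of 10 tags or more the shares were 5.48%, 4.98% and 2.91%, beside 3.13%, 2.96% and 2.91%. At 5′ ends, 89 peaks of replicate 1 had 10 tags or more, 4.31 times the shifted mean, and 48 of replicate 2 did, 3.06 times it. At 3′ ends, 5 and 10 peaks reached 10 tags, 0.20 and 0.71 times the shifted mean. Control replicate 1 had 103 peaks of 10 tags or more in all, of which 1 lay at a 5′ end, and its interval of 0.0246% to 5.29% includes the shares of the knockdown libraries (3.72% and 2.95%). Within 7 to 9 tags, where all 3 lists hold many peaks, 5′ ends took 1.19% (0.816 to 1.68) in replicate 1, 1.92% (1.25 to 2.83) in replicate 2 and 0.711% (0.407 to 1.15) in control replicate 1. The interval of replicate 2 did not meet that of the control, and the interval of replicate 1 overlapped it.

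**Figure D3:**
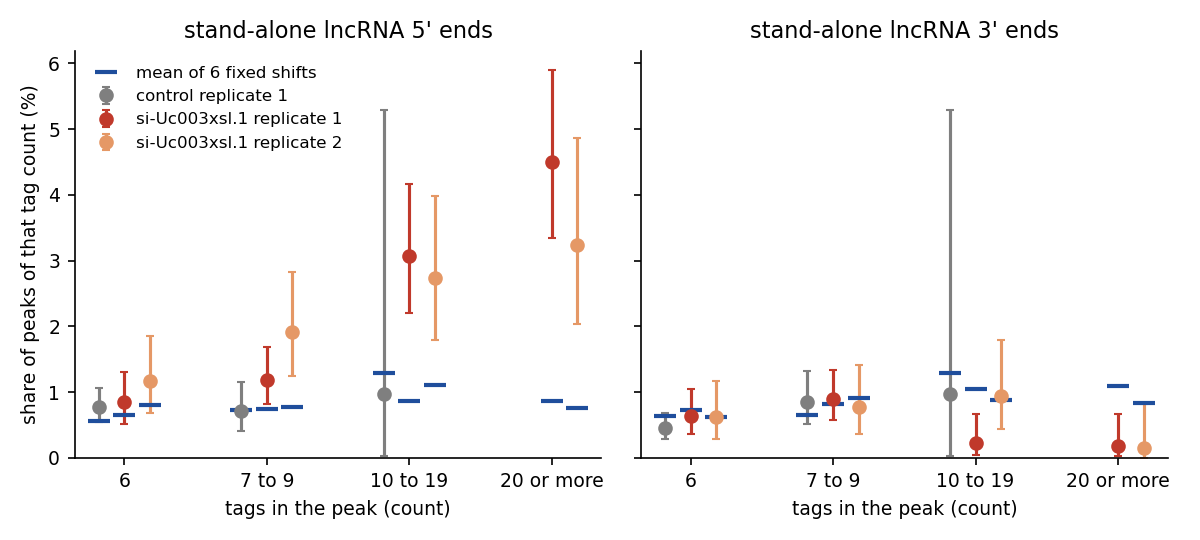
Share of peaks (percent, y axis) at stand-alone lncRNA 5′ ends (left) and 3′ ends (right) by the number of tags in the peak (x axis), with 95% exact binomial intervals and the mean of 6 fixed shifts as blue dashes; control replicate 1 has no peak of 20 tags or more. At 5′ ends the knockdown shares go from 0.846% and 1.17% at 6 tags to 4.50% and 3.24% at 20 tags or more, while at 3′ ends they are 0.183% and 0.147% in the highest class.

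The deposited false discovery rates were high throughout. The authors' caller gave members 16.67% to 32.29% in si-Uc003xsl.1 replicate 1, 9.71% to 37.78% in replicate 2 and 100% for every member in control replicate 1. No member reached 5% or less, against 0% of all autosomal peaks in replicate 1, 0.0228% in replicate 2 and 0% in control replicate 1. The fold over input, also the authors' value, had medians of 9.02, 9.14 and 11.5 in the same order. It ran from 3.73 to 19.27 in replicate 1 and was low where tags were many, as the named genes below show. Whether the difference between lists lies in NKRF binding or in the quality of the immunoprecipitations cannot be told apart with these lists.

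**Figure D4:**
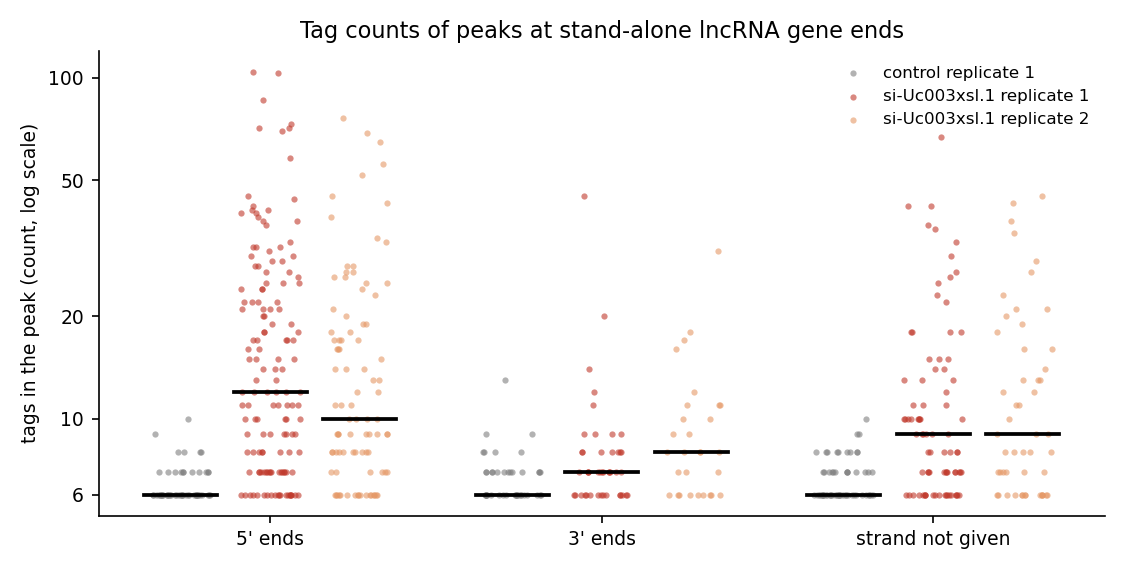
Tags of every member (count, log scale, y axis) by type of gene end (x axis) in control replicate 1 and both si-Uc003xsl.1 libraries, with points spread sideways and a black line at each median. At 5′ ends the medians are 6, 12 and 10 tags and the highest values 10, 104 and 76; at 3′ ends the medians are 6, 7 and 8.

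The 10 members with most tags in si-Uc003xsl.1 replicate 1 had 45 to 104 tags, and 9 of them lay at a 5′ end and 1 at a gene without strand. The tenth place was tied in tags: RASSF1-AS1 took it by its higher score, and LOC105379839, at a 3′ end, also had 45 tags. LOC124902765 headed the list with 104 tags over 1252 bp and 4.39-fold enrichment, its summit 218 bp before the 5′ end. NDST1-AS1, antisense to a heparan sulfate sulfotransferase gene, had 103 tags over 1614 bp, with the summit 149 bp before the 5′ end and 11638 bp from the nearest protein-coding end. Of these 10 peaks, 8 were inside a protein-coding gene and 5 were within 5 kb of a protein-coding end. Over all 267 members of replicate 1, 37.8% were inside a protein-coding gene and 60 were within 5 kb of a protein-coding end.

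LOC105371901 (86 tags) lay inside a protein-coding gene, 52466 bp from the nearest protein-coding end. PRR7-AS1 and LOC729683 had 71 and 70 tags and lay 1164 and 1339 bp from the ends of PRR7 and LIMD2, just outside the excluded distance. KCNJ5-AS1 had 58 tags inside a protein-coding gene, 14103 bp from the nearest protein-coding end, that of the potassium channel gene KCNJ5. RASSF1-AS1, antisense within the tumour suppressor gene RASSF1, had 45 tags over 651 bp, and its summit was 3474 bp from the nearest RASSF1 end.

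In replicate 2 the 10 members with most tags had 39 to 76, of which 8 lay at a 5′ end and 9 were inside a protein-coding gene. Over all 170 members of replicate 2, 47.6% were inside a protein-coding gene. MELTF-AS1 led with 76 tags over 1385 bp, 1611 bp from the end of MELTF. REPIN1-AS1 had 69 tags and TOB1-AS1, antisense to a gene of the antiproliferative TOB family, had 65. SLC9A3-AS1, antisense to a sodium/proton exchanger gene, had 56 tags, and its summit was 24 bp from the 5′ end. LOC124902686, LOC124902152, LOC112267936, LOC101928438 and LOC105377073 had 52, 45, 43, 43 and 39 tags. Of these 10 members, 8 were within 5 kb of a protein-coding end, against 53 of all 170.

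The 10 control members with most tags had 8 to 13 tags. Their fold over input, 8.38 to 18.15, was above that of the 10 leading members of the knockdown lists, 4.08 to 5.18 and 3.16 to 5.95, so tags and fold run in opposite directions. Of those 10 control members, 7 were inside a protein-coding gene and 4 within 5 kb of a protein-coding end. Over all 160 control members, 31.2% were inside a protein-coding gene and 12 were within 5 kb of a protein-coding end. LOC101927454 had 13 tags over 274 bp, at a 3′ end. LOC105374399 and LOC105373780 had 10 tags each, and LOC105374709 and LOC107986964 had 9 each. None of those 5 control genes was among the named genes of a knockdown list. Of all 160 lncRNA genes with a member in control replicate 1, only 2 had a member in either knockdown list. The absence is therefore no result about those 5 genes.

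Of 81 eligible microRNA host genes, 2 (2.47%) had a member in each knockdown list and 1 (1.23%) in control replicate 1, against 1.57%, 1.03% and 0.918% of all eligible lncRNA genes. MIRLET7A1HG held 2 members of si-Uc003xsl.1 replicate 1, of 73 and 22 tags, 350 and 790 bp inside the gene and 56752 and 57192 bp from the nearest protein-coding end. MIR17HG, host of the miR-17-92 cluster and studied as an oncogenic transcript, held a peak of 40 tags (chr13:91347948-91348717), 720 bp inside the gene and 50214 bp from a protein-coding end. Neither gene had a member in replicate 2 or in a control list. Replicate 2 held members at MIR219A2HG and MIR762HG, and control replicate 1 at MIR181A1HG. The mature microRNAs of the 2 named hosts are printed because the peaks lie at the starts of the transcripts that carry them. The seed, bases 2 to 8, is in capitals, and sequences are from RefSeq.
hsa-miR-17-5p: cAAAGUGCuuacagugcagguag
hsa-miR-20a-5p: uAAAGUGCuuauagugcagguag
hsa-miR-18a-5p: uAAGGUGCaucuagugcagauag
hsa-miR-19a-3p: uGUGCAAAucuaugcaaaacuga
hsa-miR-19b-3p: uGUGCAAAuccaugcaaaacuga
hsa-miR-92a-3p: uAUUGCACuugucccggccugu
hsa-let-7a-5p: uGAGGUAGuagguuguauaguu
hsa-let-7f-5p: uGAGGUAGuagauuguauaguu
hsa-let-7d-5p: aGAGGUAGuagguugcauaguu

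By seed, miR-17-5p and miR-20a-5p share AAAGUGC, miR-19a-3p and miR-19b-3p share GUGCAAA, and the 3 let-7 microRNAs share GAGGUAG. The peak lists say nothing about the level of these microRNAs.

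Among 50 lncRNAs studied in cancer, 45 had a stand-alone end, and members lay at FENDRR and MIR17HG in si-Uc003xsl.1 replicate 1, at DLEU2, NEAT1 and PCAT1 in replicate 2 and at CASC19 in control replicate 1. These are 2, 3 and 1 of 45 genes, or 4.44%, 6.67% and 2.22%, against 1.57%, 1.03% and 0.918% of all 17433 eligible lncRNA genes. NEAT1, the scaffold RNA of nuclear paraspeckles, had a peak of 20 tags (chr11:65445729-65446236) whose summit was 510 bp outside the gene. DLEU2, host of a tumour-suppressive microRNA cluster, had 20 tags 604 bp inside its 5′ end, and FENDRR had 11 tags 631 bp before its 5′ end. CASC19 had 6 tags. The counts are too small to compare the lists.

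Of 30 snoRNA host genes with a stand-alone end, whose introns encode small nucleolar RNAs, 2 (6.67%) had a member in si-Uc003xsl.1 replicate 1. They were SNHG6 (18 tags) and SNHG26 (9 tags). None had 1 in replicate 2 or control replicate 1. The shares of all eligible lncRNA genes were 1.57%, 1.03% and 0.918% in the same order. These counts are too small to compare the lists. Of 27 lncRNAs linked to NF-κB or inflammation, NEAT1 in replicate 2 was the only gene with a member in any of the 3 lists. These are 0 of 27 in replicate 1 and 1 of 27 (3.70%) in replicate 2, beside the 1.57% and 1.03% of all eligible genes.

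By name, antisense genes (symbols with -AS) made up 16.9% and 17.6% of members in si-Uc003xsl.1 replicates 1 and 2, 10.0% in control replicate 1 and 1912 of the 17433 eligible genes. Their members had median tag counts of 15 and 16.5 in the knockdown lists, above the 8 of uncharacterised LOC genes in both. LOC genes made up 158 of 267, 102 of 170 and 109 of 160 members, beside 68.3% of eligible genes. Long intergenic genes (LINC) made up 13.5%, 11.8% and 16.2%, beside 13.0%. LncRNA genes with a curated transcript had ratios to the shifted mean of 1.72, 2.07 and 1.37, and genes with predicted transcripts only had 1.16, 1.12 and 0.91. In all 3 libraries the ratio was thus higher at curated genes.

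The count was also divided by the distance to the nearest protein-coding end. Members 1 to 5 kb from a protein-coding end numbered 60 and 53 in the knockdown lists, 1.78 and 2.59 times the shifted mean, and 12 in control replicate 1, 0.90 times it. Members over 5 kb away numbered 207, 117 and 148, with ratios of 1.27, 1.21 and 1.08. In the knockdown lists the ratio was thus lower, but above 1, over 5 kb from protein-coding ends, a class that includes members inside protein-coding genes. At 5′ ends over 5 kb away, 104, 57 and 51 peaks stood beside 41 to 52, 28 to 35 and 32 to 50 after shifts, so the control count also lay just above its range. At 5′ ends outside protein-coding genes 80, 44 and 35 peaks stood beside 27 to 41, 20 to 32 and 23 to 43 after shifts. Members inside protein-coding genes numbered 101, 81 and 50, beside 49 to 69, 28 to 46 and 37 to 43 after shifts. The ratios were 1.59, 1.97 and 1.22, and here too the control count lay above its range.

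Protein-coding ends themselves held far more peaks. They took 1196 peaks in si-Uc003xsl.1 replicate 1 and 958 in replicate 2, 4.65 and 5.21 times the shifted mean, with median tag counts of 25 and 19. In control replicate 1 they took 101, 0.82 times it. Stand-alone pseudogene ends, classed in the same way, had ratios of 1.12, 1.38 and 0.95. The knockdown minus control difference in the log2 ratio was 0.39 at pseudogene ends (exact permutation p = 0.667), close to the 0.40 at stand-alone lncRNA ends, and 2.59 at protein-coding ends. A further 216 and 199 knockdown peaks lay near both a lncRNA end and a protein-coding end and were left out by the rule, with median tag counts of 27.5 and 22. Just outside the rule, knockdown peaks near a lncRNA end and 900 to 1000 bp from a protein-coding end numbered 3 and 7. Their medians were 10 and 18 tags. Just inside it, in the next 100 bp beyond that distance, members numbered 8 and 9 with medians of 13.5 and 19 tags.

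In the knockdown lists the overlapped lncRNA promoters differed in base composition from stand-alone lncRNA promoters as a whole. A member peak overlapped 59 of 9107 stand-alone lncRNA promoters in si-Uc003xsl.1 replicate 1, 44 in replicate 2 and 11 in control replicate 1. A promoter was called CpG-rich with a GC content over 50% and an observed over expected CpG ratio over 0.6, which are common marks of a CpG island. CpG-rich promoters were 12.3% of all 9107, 62.7% (37) of those overlapped in replicate 1, 63.6% (28) in replicate 2 and 0 of 11 in the control. Under peaks of 10 tags or more they were 29 of 38 in replicate 1 (76.3%) and 23 of 27 in replicate 2 (85.2%). The 11 control promoters lay under peaks of 6 to 9 tags, so the comparison with the control is not matched on tags. The median GC content was 47.0% over all stand-alone promoters, 64.0% and 68.8% under the knockdown peaks and 42.0% under the control peaks. Seen from the promoters, 3.30% (2.33 to 4.52) and 2.50% (1.67 to 3.59) of the 1121 CpG-rich ones were overlapped in the knockdown lists, and 0.275% (0.173 to 0.417) and 0.200% (0.115 to 0.325) of the other 7986. In the control list 0 of 1121 CpG-rich promoters were overlapped, with an exact upper bound of 0.329%, and 11 of 7986 others, or 0.138%.

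**Figure D5:**
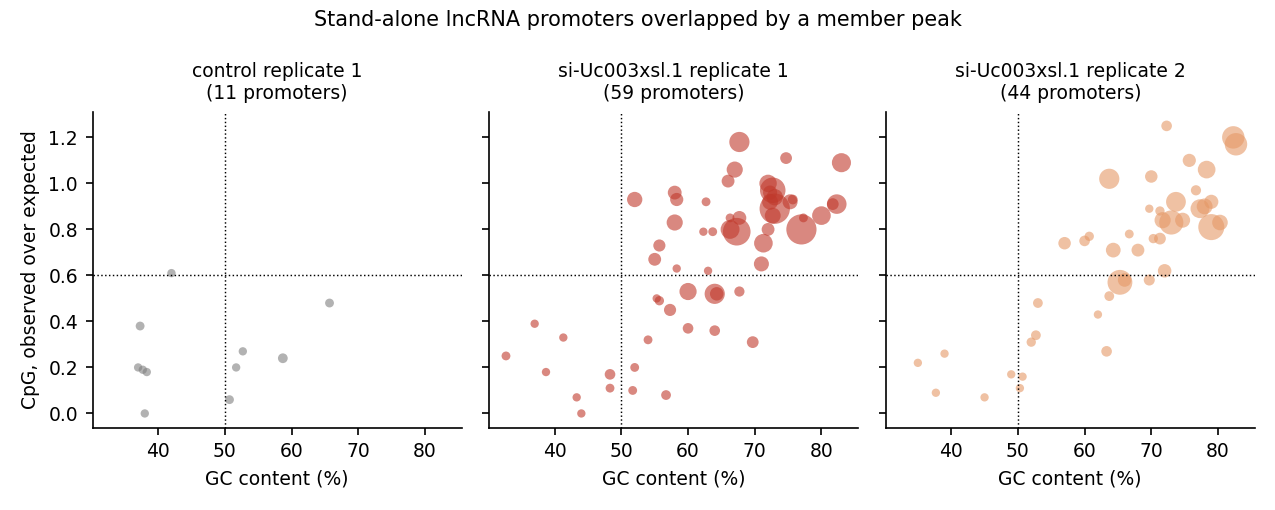
GC content (percent, x axis) and observed over expected CpG (y axis) of the stand-alone lncRNA promoters overlapped by a member peak, 1 panel per library, with point area growing with the tags of the peak and dotted lines at the limits for CpG-rich promoters (50% and 0.6). In the knockdown libraries 37 of 59 and 28 of 44 points lie in the upper right field, and in control replicate 1 none of 11 does.

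Short motifs were searched on both strands of the same 300-base windows. The GC box spelled out above, a sequence bound by Sp-family factors, was in 16.4% of all stand-alone lncRNA promoters, in 55.9% and 61.4% of those under knockdown peaks and in 0 of 11 under control peaks. Among CpG-rich promoters it was in 66.5% of all, 78.4% (29 of 37) in replicate 1 and 85.7% (24 of 28) in replicate 2. The TATA box (TATAAA) was less frequent, with 17.5% of all promoters and 5.08% and 2.27% of those under knockdown peaks. The CCAAT box (CCAAT) was in 35.7% of all and in 32.2% and 15.9%. Within CpG-rich promoters the TATA box was in 3.12% of all and in 0 of 37 and 0 of 28 under knockdown peaks, and the CCAAT box in 24.6% of all and in 24.3% and 10.7%. The NF-κB motif was in 4.04% of all promoters, in 3.39% and 4.55% of those under knockdown peaks and in 1 of 11 under control peaks. The share with an NF-κB motif under knockdown peaks was thus close to that of all stand-alone lncRNA promoters. The negative regulatory element through which NKRF is known to act was not among the motifs searched. The GC box and CpG content overlap by construction, since the motif holds a CpG.

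Protein-coding promoters gave the same order. CpG-rich promoters were 63.8% of all 15101 and 93.6% of those overlapped in each knockdown list (613 of 655 and 426 of 455), and 4 of 8 in control replicate 1. Input DNA was the caller's only background, and how far shearing or amplification of GC-rich DNA contributes to these peaks was not tested.

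Few of the regions recurred between the knockdown replicates. A member of the other list overlapped 5 members by at least 1 bp, which is 1.87% of the 267 in replicate 1 and 2.94% of the 170 in replicate 2. Counting any autosomal peak of the other list, 6 members of replicate 1 (2.25%, against 2.11% of all its autosomal peaks) and 8 of replicate 2 (4.71%, against 3.51%) overlapped. Both shares lay near the background of all peaks. They were below the 8.19% and 10.0% of peaks at protein-coding ends.

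The 5 recurring regions, given with the coordinates of the authors' GRCh38 peaks, lay at JMJD1C-AS1, LOC124902225, NEBL-AS1, ZFP28-DT and LOC124902198. At JMJD1C-AS1 (chr10:63465003-63466168), antisense to a histone demethylase gene, the peaks had 67 and 38 tags in replicates 1 and 2, and their summits were 237 bp apart. At LOC124902225 (chr9:97983956-97985220) they had 71 and 45 tags, 1276 and 1170 bp from the end of ANP32B. At NEBL-AS1 (chr10:21174163-21174787) they had 31 and 19 tags, with summits 334 and 458 bp inside the 5′ end and 118726 and 118602 bp from the nearest protein-coding end.

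At ZFP28-DT (chr19:56538740-56539329), a divergent transcript of a zinc finger gene, the recurring peaks had 26 and 14 tags. At LOC124902198 (chr9:87758918-87759076) they had 10 and 8 tags, and their summits were 6 bp apart. Replicate 1 had the higher count at all 5, and it also had the deeper library. Of the 5 regions, LOC124902198 alone lay outside protein-coding genes.

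Another 4 overlaps involved a peak of the other list that just missed the rule, at VSIG10L-AS1 (23 and 24 tags), SLC39A13-AS1 (35 and 66), DLEU2 (20 and 60) and LOC102724234 (8 and 13), with the member's tags first. At DLEU2 the replicate 1 peak of 60 tags had its summit 1452 bp from the gene end. Counted by gene, 11 of 17433 eligible lncRNA genes (0.0631%) had a member in both knockdown lists. Besides the genes of the recurring regions they were IRAIN, LOC105369368, LOC105372594, LOC124904429, LOC124904888 and LOC401312, of which LOC105372594 and LOC124904888 shared their peaks. At IRAIN, an antisense RNA of the IGF1R gene, separate peaks of 25 and 17 tags lay 128 and 964 bp inside the 5′ end.

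No member of either knockdown list overlapped an autosomal peak of control replicate 1, with exact upper bounds of 1.37% and 2.15%. Over all autosomal peaks of those lists, 0.134% (10 of 7442) and 0.0912% (4 of 4384) did, so the absence of overlap is near the background and is no result about the members. With control replicate 2, 1 member of si-Uc003xsl.1 replicate 1 (0.375%) overlapped a peak, beside 0.0134% of all its autosomal peaks (1 of 7442), and no member of replicate 2 did, beside 0.0228%. By gene, HYMAI and LOC105376107 had a member in control replicate 1 and in si-Uc003xsl.1 replicate 1, at different positions. At HYMAI the peaks had 6 and 9 tags, and at LOC105376107 they had 6 and 11.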

How the data were processed

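NKRF ChIP-seq peak lists of 4 libraries were used, grouped by the sample titles. The members, gene lists and tests were chosen with earlier results of these data known. The submitters' processing notes name Bowtie2, CASAVA 1.4 and build GRCh38.p11. Per the file headers, each library was called against 1 input, unpooled, with 1 tag kept per position. MACS 1.4.2 at p 1e-04 made 3 lists (control replicate 1 and the knockdown pair), and MACS 2.1.1.20160309 at q 0.05 made that of control replicate 2, per the file headers. The MACS 1.4.2 lists give deposited tag counts without normalization. Their deposited score rises as the p-value falls, on a log10 scale. The fold over input and the false discovery rate in percent are the authors' values per peak. The control replicate 2 list gives pileup signal and −log10 p- and q-values, per the file headers, which were not used. That library differs in caller version, threshold, read length and depth, so its number of peaks was not compared with the others.

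Summits were compared with gene ends of RefSeq GRCh38.p14 on chromosomes 1 to 22 (Python 3.11.15, pandas 2.3.3, scipy 1.17.1). Strand came from the RefSeq promoter table. Shares have 95% exact Clopper-Pearson intervals, and libraries were compared by exact two-sided permutation. No p-value was taken from the shifts. Genes are named where they hold 1 of the 10 members of most tags in a knockdown list, a region called in both, a list gene (up to 8 per list) or 1 of the 5 strongest control members. The other genes named were chosen after their values were seen. The classing was tested on simulated data. Alternatives changed the window, the distance to protein-coding ends, the summit, the threshold, the shifts and the libraries. Input libraries were not analysed here.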

Additional observations from a re-analysis of the deposited data

How the results depend on the processing

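The difference in the share of peaks at stand-alone lncRNA ends kept its direction in all 16 alternatives, from 0.04 to 2.42 percentage points. The log2 ratio to the shifts kept it in 16 alternatives and was -0.25 with 3′ ends only, an alternative chosen after seeing the data, as were the restrictions to curated genes, to places outside protein-coding genes and to peaks above the smallest tag count, the removal of peaks at protein-coding ends from the denominator (which gave the 2.42 points), and every value for 5′ ends alone. The 5′-end difference ranged from 0.63 with a 2-kb window to 2.28 with 10 tags or more; it had no value at a score of 60 or more. The 5 regions called in both knockdown lists became 12 with a 2-kb window, 3 over 5 kb from protein-coding ends, 3 at curated genes, 2 among the 4000 peaks of highest score, 1 outside protein-coding genes and 0 at a score of 60 or more. Leaving out each knockdown library gave 1.42 to 1.71 points, log2 differences of 0.35 to 0.45 (0.99 to 1.05 at 5′ ends) and 14.23 to 14.71 points for wide members. With control replicate 2 added and the replicate number as a block, the differences were 1.31 points, 0.28 on the log2 scale (1.16 at 5′ ends) and 14.47 points for wide members, with an exact sign-flip p of 0.5, the smallest for 2 pairs. The numbers are shared labels only, no source gives a pairing, and a correlation of deviations was not computed. No alternative could reach p below 0.333 with 3 libraries, so the p-values say nothing about stability.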

Other observations

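On chromosome X, which the rule leaves out, peaks at stand-alone lncRNA ends numbered 0 of 91 in si-Uc003xsl.1 replicate 1, 2 of 44 in replicate 2 and 0 of 38 in control replicate 1. With 95% exact intervals reaching 3.97%, 15.5% and 9.25%, these counts do not separate the lists. A further motif was counted in the promoter windows. CGGAAG, the core bound by ETS-family factors, was in 8.67% of all stand-alone lncRNA promoters and in 30.5% and 13.6% of those under peaks of si-Uc003xsl.1 replicates 1 and 2. Among CpG-rich promoters it was in 25.7% overall and in 40.5% and 14.3%, so the knockdown libraries lay on either side of the overall share.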
